A study of Rattus norvegicus with 28 samples.

Results

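The comparison of exposure to injured and to uninjured spinal cord at 4 weeks rests on 8 of the 28 libraries of the series, 4 labelled as exposed to injured cord and 4 as exposed to cord with no mention of injury, here read as uninjured. In what follows, injured and uninjured cord stand for the samples with these exposures, and replicates are numbered by their place in the deposited series, which ties no sample to another. Libraries were taken by these exposure labels, and no measured value entered that rule. All libraries are labelled as rat (Rattus norvegicus) neural progenitor cells, and the study concerns transplantation of such cells into spinal cord injury in rodents. The labels give no strain, age, injury type or genotype. The manner of exposure, the start of the 4 weeks, any separation of the cells from cord tissue and the number of animals or cultures behind each group are not stated in them. Spread between samples may thus be technical, and the p-values measure no more than that spread.

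Neural progenitor cells are dividing cells of the neural lineage that can give rise to neurons, astrocytes and oligodendrocytes, and after grafting their fate depends strongly on the surrounding tissue. An injured cord differs from an intact one in its reactive glia, infiltrating immune cells, scar matrix and loss of neurons and myelin. RNA of such a sample can change because the cells change their expression or because the mixture of cells differs. In bulk RNA, fewer cells of a type and less RNA per cell cannot be told apart.

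The deposited table names genes only by rat Ensembl identifiers, and 0 of its 32545 identifiers could be paired with a gene symbol from the reference tables used here. The labelled cell type could therefore not be checked against its markers, and the genes are described by their abundance, size of change and behaviour in the other groups. No sequence is printed, since no identifier could be tied to a reference gene. Only 4 genes, those with the largest differences in each direction, are given by identifier.

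The libraries held 3671962 to 4467448 counts in the injured group and 2605188 to 4449811 in the uninjured group. Of the 32545 genes, 8607 had 0 counts in all 8 libraries, and 12117 had enough counts to be tested. The genes tested held 98.8% to 99.7% of the counts of each library. No library looked like a copy of another, since the counts of the 12 pairs within groups differed by 6.44 to 32.8 chi-square units per degree of freedom, where about 1 would be sampling noise alone. The exposure groups stood apart along the axis that held the most variance. Whether source or processing also divided the libraries this way cannot be told from the labels. The first principal component held 76.2% of the variance of log2 CPM, the counts of a gene scaled to a library of 1000000 counts, with injured libraries at -74.5 to -60.5 and uninjured ones at 65.3 to 77.1. Spearman correlations across genes were 0.942 to 0.984 within the injured group, 0.948 to 0.978 within the uninjured group and 0.774 to 0.845 between the groups. By 1 common estimate over genes, replicates of both groups varied to the same extent, with a biological coefficient of variation of 21.9% in injured and 22.3% in uninjured libraries. Library measures given below differed in spread. Genes detected varied more among uninjured libraries, and the share of the most abundant genes varied more among injured ones.

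Exposure to injured cord went with a difference in a large part of the expressed genes at week 4. Of 12117 genes tested, 4903 (40.5%) differed at a Benjamini-Hochberg adjusted p under 0.05 in edgeR's quasi-likelihood test. The injured group was higher for 2286 of them (18.9%) and lower for 2617 (21.6%). The CPM values of both groups did not overlap for 4625 genes (38.2%), with the injured libraries above for 2135 (17.6%) and below for 2490 (20.5%). The test called 4162 of these 4625 genes. The median log2 fold change over all genes tested was -0.02. Scaling between libraries draws this centre towards 0, so it could not show a shift of all genes together.

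The genes lower in injured cord differed by more than the genes higher in it. The median log2 fold change was -1.34 for the genes called lower (quartiles -2.49 and -0.84) and 1.03 for those called higher (quartiles 0.71 and 1.82). At least 2-fold differences were found for 1742 genes in the lower direction (14.4% of those tested) and 1177 in the higher direction (9.71%). The imbalance grew with the size of the difference. At least 8-fold differences were found for 524 lower and 206 higher genes, and at least 32-fold differences for 187 lower and 16 higher genes. With genes that had 0 counts in a whole group set to their bound from a floor of 3 counts over that group, the last counts were 178 and 14, and the others and the medians were the same. That bound leaves out genes with few counts in a group, which can also pass the filter only through the group where they are high. How many of the large differences rest on such genes was not tested, so the imbalance is a description.

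**Figure D1:**
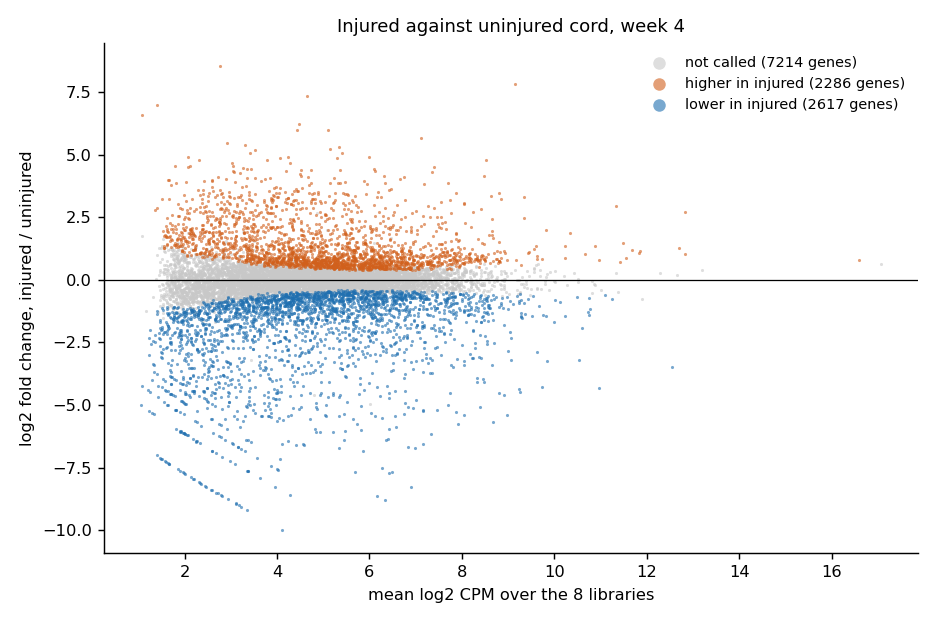
Each point is 1 of the 12117 genes tested, with its mean log2 CPM over the 8 libraries on the x axis and its log2 fold change (injured over uninjured, week 4) on the y axis. Orange marks the 2286 genes called higher and blue the 2617 called lower at an adjusted p under 0.05. Blue points reach farther from 0 than orange ones, and the slanted lines of points at the left are genes with no or few counts in 1 of the groups.

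Some genes were found in one group alone. Among the genes tested, 35 had 0 counts in all 4 injured libraries. Such genes enter the test only through their counts in the other group, so their calls follow from the filter and are not counted as a result. The median of their mean levels in uninjured libraries was 8.98 CPM. In the other direction, 3 of the genes tested had 0 counts in all 4 uninjured libraries. In the week 3 libraries, which did not enter this test, 15 of the 35 also had 0 counts in the 3 complete injured libraries, and 30 of the 35 had at least 3 counts in every uninjured library. In culture 7 of the 35 had 0 counts. The same shares over all genes tested were not computed, so these counts are descriptions and not a result about the 35 genes.

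ENSRNOG00000002322 had the largest fitted log2 fold change in the lower direction in this fit. Its levels were 20.5, 34.3, 35.7 and 43.0 CPM in uninjured replicates 1 to 4, and it had 0 counts in all 4 injured libraries. Every uninjured library thus held the transcript and no injured library did. Against a floor of 3 counts summed over the injured group, injured cord held at least 172-fold less of it. Its edgeR adjusted p of 6.09e-08 follows from the filter, as above, and is not counted as a result.

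ENSRNOG00000017249 showed the same division between the groups. It stood at 12.04, 18.5, 31.0 and 17.1 CPM in uninjured replicates 1 to 4 and at 0 counts in all 4 injured libraries. It was at least 96.9-fold lower in injured cord by the same floor, and its edgeR adjusted p of 6.08e-07 is likewise not counted as a result.

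ENSRNOG00000017333 was the most abundant of the 4 genes. It reached 1004, 1245, 1096 and 1173 CPM in injured replicates 1 to 4, against 2.11, 1.28, 14.4 and 4.03 CPM in uninjured replicates 1 to 4. The groups were far apart, and the highest uninjured level was that of replicate 3, which gave 40 of the 69 uninjured counts. The means were 1129 ± 103.5 and 5.46 ± 6.09 CPM (SD, n = 4 each), and the fitted log2 fold change was 7.80 (SE 0.55; edgeR adjusted p = 1.08e-07). Its uninjured counts of 7, 6, 40 and 16 would not have passed the filter without the injured libraries. The gene was also named for its large difference, so this adjusted p is not counted as a result. Without uninjured replicate 3 the log2 fold change was 8.84.

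ENSRNOG00000000952 had the largest fitted log2 fold change in the higher direction in this fit, at a lower level. With 0 counts in a group that fitted size depends on the method, and limma voom with quality weights put ENSRNOG00000017333 above it, at 8.54 against 6.64. Its levels were 7.73, 9.95, 16.3 and 15.2 CPM in injured replicates 1 to 4, with 0 counts in all 4 uninjured libraries. With the floor of 3 counts over the uninjured group, ENSRNOG00000000952 was at least 62.2-fold higher in injured cord. Its edgeR adjusted p of 1.78e-06 is also not counted as a result, since the gene passed the filter through the injured group alone.

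The same 4 genes were read in the other groups of like depth, with 20 libraries scaled together. In culture, ENSRNOG00000017333 stood at 220 ± 46.4 CPM and ENSRNOG00000000952 at 1.42 ± 0.56 CPM (SD, n = 4 each). The lower pair was nearly missing from culture, with 12 counts in all for ENSRNOG00000002322 and 0 for ENSRNOG00000017249. At week 3, ENSRNOG00000000952 stood at 44.2 ± 3.85 CPM in injured libraries, more than the 13.8 ± 4.60 CPM of injured week 4 on this scale (SD, n = 4 each), and again had 0 counts in uninjured libraries. ENSRNOG00000017333 had the opposite order, with 337 ± 36.6 CPM in injured week 3 and 1263 ± 128.4 CPM in injured week 4 (SD, n = 4 each). These levels by week and culture are descriptions and were not tested here.

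**Figure D2:**
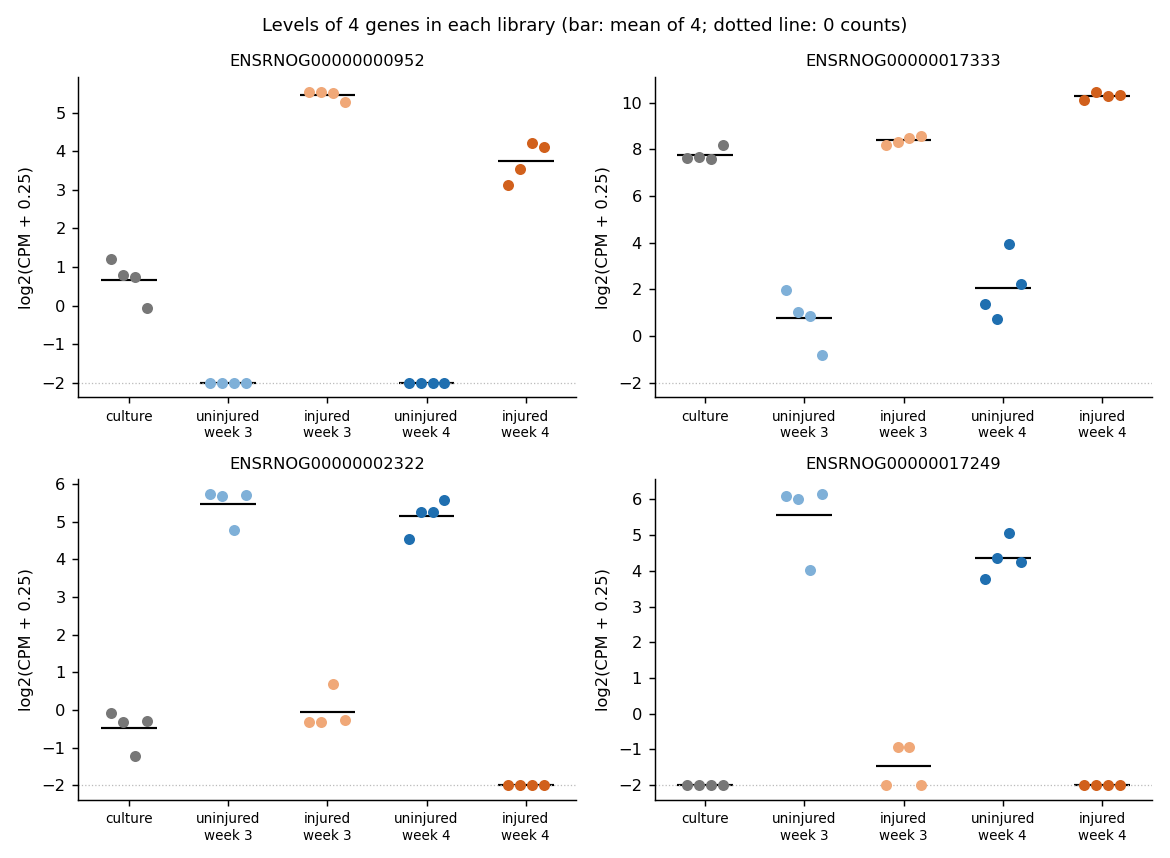
Each panel shows 1 gene in the 20 libraries of culture and weeks 3 and 4, as log2(CPM + 0.25), with a point per library and a bar at the mean of each group of 4. In the upper panels the injured libraries stand above the uninjured ones at both weeks, and in the lower panels they stand at or near the dotted line of 0 counts.

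Genes of all levels of abundance took part. Classes were formed from the mean CPM over the 8 libraries, which is not corrected for gene length. Among the 3083 genes under 10 CPM, 14.7% were called higher and 24.4% lower. Such genes can pass the filter only through the group where they are high, and how many did was not tested. Among the 7383 genes of 10 to 100 CPM, both directions had nearly the same share, with 1445 higher (19.6%) and 1440 lower (19.5%). Among the 1599 genes of 100 to 1000 CPM, 23.3% were higher and 25.7% lower. Of the 52 genes at 1000 CPM or more, 17 were higher and 15 lower. The fitted differences of called genes were larger in the lowest class, with medians of 1.80 and -2.17 log2 units, than among genes of 10 to 100 CPM, with 0.88 and -1.12. The least abundant genes were also the least precise, with a median standard error of 0.39 log2 units against 0.21 in the class of 10 to 100 CPM, so that small differences were harder to call there.

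**Figure D3:**
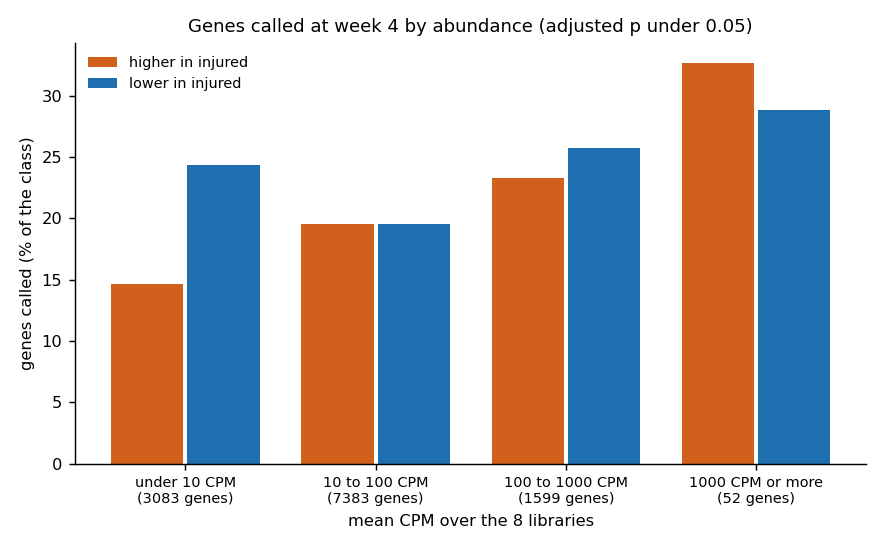
Bars give the share of genes called higher (orange) or lower (blue) in injured cord at week 4, in percent of the genes of each class of mean CPM. The blue bar is well above the orange one only under 10 CPM, at 24.4% against 14.7%, and both directions are nearly level at 10 to 100 CPM.

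The called genes moved a large share of all counts. These shares describe genes chosen on the same values. Genes called higher held 37.3% ± 1.25 of the tested counts in injured libraries and 19.8% ± 1.09 in uninjured ones (SD, n = 4 each). Genes called lower held 9.48% ± 1.23 in injured and 28.1% ± 1.86 in uninjured libraries (SD, n = 4 each). The gain was concentrated and the loss was spread over many genes. Only 18 of the genes called higher made up 50% of their summed CPM difference, and 1 gene alone made up 26.6%. For the genes called lower it took 145 genes to reach 50%, and the largest single share was 5.86%.

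For many of the remaining genes a large difference was outside the error. Of the 7214 genes not called, 5524 (76.6%) had a 95% interval of the log2 fold change (limma voom) that lay within 2-fold in either direction, and 1954 had one within 1.5-fold. The other genes not called had intervals that reached beyond 2-fold, and the spread between replicates left a 2-fold difference undecided for them. An estimate of at least 2-fold was found for 1.73% of the genes not called.

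Injured libraries held fewer detected genes. At 2500000 counts drawn from each library, 14779, 14612, 14900 and 15093 genes had at least 1 count in injured replicates 1 to 4, and 17052, 16540, 19976 and 17372 in uninjured replicates 1 to 4. The groups did not overlap, and uninjured replicate 3, which has the fewest counts of the 8, lay above the rest of its group. The means were 14846 ± 203 and 17735 ± 1533 genes (SD, n = 4 each; exact permutation test, two-sided p = 0.0286, the smallest that 4 against 4 can give). Without uninjured replicate 3 the difference was -2142 genes in place of -2889, still with no overlap. In these draws 23224 genes were found in at least 1 of the 8 libraries and 12337 in all 8. Of the genes found, 411 were in all 4 uninjured and no injured libraries, and 18 in all 4 injured and no uninjured libraries. Uninjured replicate 3 alone gave 1884 genes found in no other of the 8 libraries, where each of the others gave at most 582.

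The most abundant genes took up more of the injured libraries. Within the groups the share and the genes detected had no common order. Uninjured replicate 2 had the lowest share and the fewest genes of its group, while injured replicate 2 had the highest share and the fewest genes of its group. Whether the share bears on detection within a group was not tested, and detection without the 10 most abundant genes is given below. The 10 most abundant genes of a library held 30.4% to 40.9% of its counts in the injured group, with the highest value in replicate 2, and 21.9% to 26.3% in the uninjured group (exact permutation test, two-sided p = 0.0286). The 2 most abundant alone held 27.6% ± 4.14 and 18.8% ± 1.79 (SD, n = 4 each; exact permutation p = 0.0286). With the 10 most abundant genes of the 8 libraries removed and 1500000 of the other counts drawn, injured libraries still had fewer genes detected, at 14591 to 14908 against 16014 to 19264 (exact permutation p = 0.0286). Benjamini-Hochberg adjustment over the 5 measures of this kind left this exact permutation p at 0.0286 for each. Uninjured week 4 libraries also held more genes than uninjured week 3 libraries, at 17735 ± 1533 against 15678 ± 372 (SD, n = 4 each; exact permutation p = 0.0286). At week 3 the gap between injured and uninjured was small, with 14948 to 15138 genes in the 3 complete injured libraries and 15132 to 15968 in the 4 uninjured ones.

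**Figure D4:**
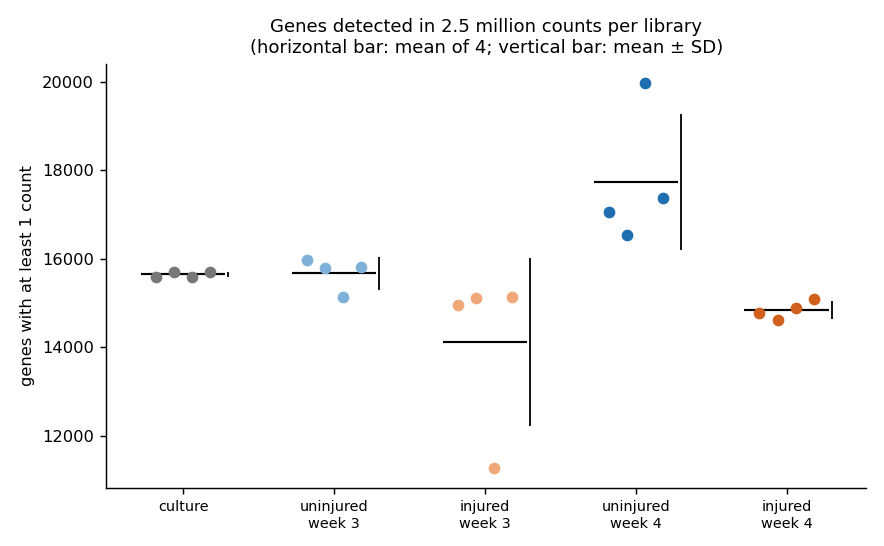
Points are libraries, and the y axis, which does not start at 0, gives the genes with at least 1 count among 2500000 counts drawn from each. Horizontal bars are means and vertical bars the mean ± SD of 4 libraries. Uninjured week 4 libraries lie highest, at 16540 to 19976, and injured week 4 libraries lie at 14612 to 15093. The low point of injured week 3 is its replicate 3, at 11262.

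The week 4 difference was then set beside that of week 3, the other week of like depth, which shares no library with it. The week 3 values come from a fit of both weeks together, so week 4 libraries also enter their scaling, gene filter and estimated spread. Injured week 3 replicate 3 lacks many genes that its group expresses, so values are given without it and, where they differ, with it. Of the 2286 genes called higher at week 4, 85.4% had a positive week 3 log2 fold change, where 49.8% of all genes tested did, and 1645 (72.0%) were called higher at week 3, against 28.6% of all genes. Of the 2617 called lower, 89.4% had a negative one, against 50.2% of all genes, and 1931 (73.8%) were called lower at week 3, against 32.04%. With the incomplete library the shares called were 56.8% and 67.8%, against 22.2% and 28.7% of all genes.

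The larger a week 4 difference was, the more often week 3 shared it. Genes called higher by less than 2-fold were called higher at week 3 in 59.8% of cases, those of 2-fold to 4-fold in 77.3%, those of 4-fold to 8-fold in 90.0% and the 206 genes of 8-fold or more in 95.1%. For genes called lower the shares were 63.5%, 69.3%, 80.5% and 94.1%. With the incomplete library they were 43.6%, 57.7%, 80.6% and 92.2% for higher genes and 54.1%, 62.8%, 77.2% and 92.9% for lower ones, which also rise with the size of the difference. Among genes at least 8-fold higher at week 4, the median log2 fold change was 3.48 at week 4 and 5.33 at week 3. Among genes at least 8-fold lower, it was -4.50 at week 4 and -4.46 at week 3.

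The test of the difference between weeks named the genes where injury at week 4 departs from week 3. The injury effect differed for 2897 of 12923 genes (22.4%) with all 16 libraries and for 4036 of 13129 (30.7%) without the incomplete one (edgeR interaction test, adjusted p under 0.05). Of the 4036, the effect had the same sign and was smaller at week 4 for 2184 genes, had the same sign and was larger at week 4 for 270, and had opposite signs for 1582. The corresponding counts with all 16 libraries were 1587, 168 and 1142. A clear change of direction, with a call in each week, was found for 309 genes. Of these, 225 were higher in injured cord at week 4 and lower at week 3, and 84 were lower at week 4 and higher at week 3. With all 16 libraries there were 177 such genes, of which 54 were lower at week 4. Over all genes the spread of log2 fold changes was smaller at week 4, with an SD across genes of 1.55 against 2.28 at week 3 (1.52 and 2.23 with the incomplete library).

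Among the 4 genes given by identifier, the change between weeks could be tested for 3, since ENSRNOG00000000952 had 0 counts in the uninjured libraries of both weeks. These values leave out injured week 3 replicate 3. The genes were chosen for their large week 4 differences, and the same libraries enter this test, which favours a larger difference at week 4. ENSRNOG00000002322 had a larger difference at week 4, by -3.78 log2 units (SE 1.32; edgeR adjusted p = 0.0381). With limma voom and quality weights on all 16 libraries this was -1.85 (adjusted p = 0.0634), so that the call depends on the method, while edgeR on the 16 gave -4.42 (adjusted p = 0.00612). It had 0 counts in the injured week 4 libraries and 2 in each of the 3 complete injured week 3 libraries (10 in replicate 3), so the fitted size depends on how 0 counts are treated. ENSRNOG00000017333 differed between weeks by 0.56 (SE 0.74; edgeR adjusted p = 0.609), and ENSRNOG00000017249 by -0.51 (SE 0.87; edgeR adjusted p = 0.699). With all 16 libraries they were 0.36 and -1.24 (edgeR adjusted p = 0.86 and 0.515), and none of these values shows that the effect is equal in both weeks.

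**Figure D5:**
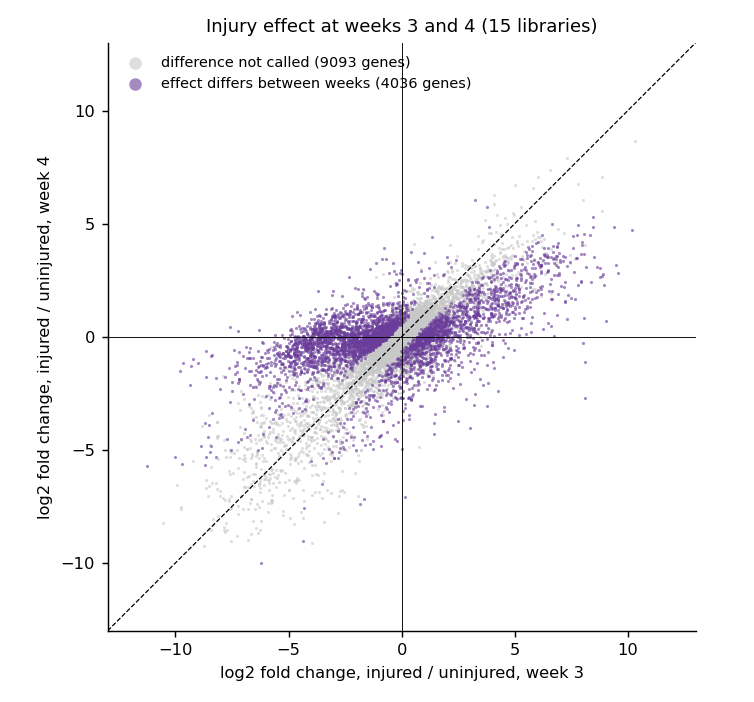
Each point is a gene, with the log2 fold change of injured over uninjured cord at week 3 on the x axis and at week 4 on the y axis, from the 15 libraries without injured week 3 replicate 3. Purple marks the 4036 genes whose effect differed between weeks at an adjusted p under 0.05, and the dashed line marks equal effects. Most purple points lie nearer to 0 on the week 4 axis than on the week 3 axis.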

How the data were processed

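Per the labels' protocols, Trizol RNA was treated with DNase and made into libraries with a stranded total RNA kit for low input. The authors deposited raw, unnormalized counts per gene in 1 table with a column per library. Tools named in the submitters' processing notes are STAR 2.5.1, featureCounts 1.5.1, Trim Galore 0.4.1, FastQC 0.11.5, StringTie 1.3.3 and Picard. The notes also name GRCm38, a build of the mouse genome, although the identifiers are rat. The annotation release, strand setting and handling of duplicate and shared reads were not given in the sources used here, and counts of near-identical or overlapping genes are uncertain. Since reads carry no molecular identifiers in the table, floors cover counting error only.

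The 8 week 4 libraries were fitted alone with edgeR 4.0.16 in R 4.3.3 (robust quasi-likelihood test, TMM factors, filterByExpr by group, 6 residual degrees of freedom). Standard errors (SE) are the log2 fold change divided by the root of F. The difference between weeks used 16 libraries and 4 group means. CPM use TMM-scaled library sizes, and log2 CPM a prior count of 2. The tests were checked on simulated counts. Named genes have the largest log2 fold changes among those called at 0.05 whose mean log2 CPM is at least 2 and whose groups do not overlap. The rule also asked for a symbol, which no identifier has, so it was applied without one, to 2 genes each way. Gene lists, marker genes and promoter motifs needed symbols and were not run. This comparison, the lists and the tests were chosen with earlier results of these data known. Alternatives used DESeq2 1.42.0 and limma 3.58.1.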

Additional observations from a re-analysis of the deposited data

Results flagged for a closer look

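The injury effect at week 4 differed from that at week 3 for 2897 genes with all 16 libraries (edgeR interaction test, adjusted p under 0.05), which was looked at again because the same contrast gave different effects in 2 weeks. For ENSRNOG00000002322, flagged for the same reason, the week 4 minus week 3 difference was -4.42 log2 units (SE 0.96; edgeR adjusted p = 0.00612, all 16 libraries), and adjusted p-values were at most 0.0634 over its 20 alternatives. The gene was named for its large week 4 difference in the same libraries, which favours a larger difference at week 4. In 25 groups of 4 values from the week 4 libraries, covering the 4 genes, depth, detection and similarity, Dixon's ratio set 0 libraries apart from their group, and about 1.25 would be expected by chance. With 4 values the ratio finds only a value very far from the rest, and the 25 groups share libraries. The check thus cannot show that no library stands apart. Uninjured replicate 3, which it did not flag, alone gave 1884 genes found in no other of the 8 libraries.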

How the results depend on the processing

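The week 4 count of 4903 genes stayed within 1.5 times in 17 of 19 alternatives. With all 28 libraries in 1 fit it was 2396 (884 higher and 1512 lower), and in a test against a fold change of 1.5 it was 2649 (1067 higher and 1582 lower). Leaving out each library in turn gave 4338 to 5113 calls, 1909 to 2444 higher and 2337 to 2669 lower. The lower calls outnumbered the higher ones in the other 18 alternatives, but not when weeks 3 and 4 were fitted together after removal of the incomplete injured library (2847 higher, 2728 lower), which was chosen after the data were seen. Without a low count filter 2687 genes were at least 2-fold lower, and the median log2 fold change of the 23938 genes then kept was -0.41. The 4 genes given by identifier kept their direction and call in all 19. Each passed the main filter only through the group where it is high, so these calls are not counted as a result. Genes whose effect differed between weeks numbered 4720 with limma voom (2118 with week 4 below week 3) and 1551 were below with DESeq2, against 1031. Leaving out each of the 16 libraries gave 2509 to 4036 genes, of which 832 to 1664 were below. For ENSRNOG00000017333 that difference ran from -0.31 to 1.41 and changed sign without uninjured week 4 replicate 1 (-0.0055) or 2 (-0.074) or uninjured week 3 replicate 1 (-0.31). For ENSRNOG00000017249 it was 1.18 with limma voom. The cause was not tested. No paired analysis was possible because the replicate numbers used here follow the order of deposition and are not in the labels. The fit leaving out mitochondrial and ribosomal RNA and the alternatives of the gene lists were not run, for want of gene names. Leaving out the 10 most abundant genes, added later, gave 4764 calls. The median standard error was largest for genes under 10 CPM, at 0.39 log2 units.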

Other observations

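Cells kept in culture, which enter neither side of the week 4 comparison, give a further level for each gene, with culture and week 4 libraries scaled together. The values are descriptions of genes chosen on their week 4 levels and were not tested. For the 2286 genes called higher in injured cord, the median log2 CPM was 5.28 in culture, 4.25 in uninjured and 5.44 in injured week 4 libraries. Culture lay above both week 4 groups for 978 of them (42.8%), between the groups for 920 (40.2%) and below both for 388 (17.0%). Over all genes tested these shares were 37.7%, 25.9% and 36.4%, so the share above both was near that of all genes. For the 2617 genes called lower, the medians were 3.78 in culture, 5.05 in uninjured and 3.61 in injured libraries. Culture lay below both groups for 1091 of these (41.7%), between them for 1187 (45.4%) and above both for 339 (12.95%), against the same 36.4%, 25.9% and 37.7% of all genes tested. Culture was nearer to the injured than to the uninjured mean for 67.8% of the genes called higher and 68.7% of those called lower, where it was so for 62.0% of all genes tested.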
